A study of Homo sapiens with 21 samples.

Results

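The collagen genes are the genes whose symbol on the array platform reads COL, a number, A and a number, such as COL1A1. Of 19775 genes that the platform annotation pairs with at least 1 probe set of a single symbol, 43 are collagen genes, and they are read by 112 of the 54613 probe sets tested. Of these genes, 8 have 1 probe set and 35 have several, with up to 8 for COL6A1. A gene with several was read, in each line, at the one whose values averaged highest there, and all 43 entered every comparison without a filter on low values. COL17A1 is not analysed here.

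Collagens are built from alpha chains that wind 3 by 3 into a triple helix. Fibril-forming chains (types I, II, III, V, XI, XXIV and XXVII) make the banded fibres of connective tissue, type IV chains make the sheet-like network of basement membranes, type VI makes beaded filaments, type VII anchors the epidermal basement membrane to the tissue below, and the fibril-associated (FACIT) chains sit on the surface of fibrils. New chains are hydroxylated and folded in the endoplasmic reticulum, trimmed outside the cell and cross-linked, and cells hold on to them through integrins and other receptors. In the lung, epithelial cells rest on a type IV basement membrane and fibroblasts lay down most of the fibrillar collagen. APE1, the product of APEX1, is a DNA repair nuclease that also takes part in transcription and is acetylated on lysines near its N-terminus.

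Labelled cRNA from 2 established cell lines was hybridized to 21 Affymetrix HG-U133 Plus 2.0 arrays, which fall into 7 groups of 3 biological replicates. In A549, a lung adenocarcinoma line, the groups were APE1 siRNA, control siRNA, APE1 siRNA + TSA and control siRNA + TSA, where TSA (trichostatin A, an inhibitor of histone deacetylases) was given at 100 ng/ml for 4 hrs before harvest. A single APE1 siRNA (80 nM) was used on the arrays, and the harvest is placed at 48 hrs by the labels and at 72 hrs by the study's methods. In BEAS-2B, an immortalized human bronchial epithelial line, cells expressed RR APE1 (both lysines of the K6R/K7R mutant are replaced by arginine and cannot be acetylated), ND42 APE1 (without the N-terminal 42 amino acids) or WT APE1 from transfected plasmids for 48 hrs. All BEAS-2B groups keep their own APEX1 gene and none was transfected with an empty vector. The labels give 1 plasmid backbone for the 3 constructs while the methods give a FLAG-tagged RR construct in another, so the backbone of RR and its mutation cannot be told apart.

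Values are RMA log2 intensities, so 1 unit is a doubling. A gene was called when limma's moderated test gave an adjusted p (Benjamini-Hochberg over all probe sets tested) under 0.05 together with a log2 fold change of 0.32 or more, up or down. In every comparison below, all collagen genes called had groups that did not overlap. The share of all called genes without overlap was not computed, so this describes the collagen values only. The percentage of all 19775 genes called is given beside each collagen count as the background. Cells were measured in bulk, so fewer cells that express a gene and less of its RNA per cell cannot be told apart.

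One array stood apart. A549 APE1 siRNA replicate 2 correlated with the other A549 arrays at 0.876 to 0.896, while arrays of the same group otherwise correlated at 0.9935 or more, and its ACTB 3′ probe set exceeded the 5′ one by 6.08 log2 units, against 0.13 to 1.05 on the other A549 arrays. On that array 20 of the 112 collagen probe sets lay more than 1 log2 unit from the mean of the other 2 replicates, 15 of them higher and 5 lower. This array enters all A549 comparisons, in those of control siRNA cells through the shared error. Collagen calls and list counts that changed when it was left out are therefore also given without it. APEX1 itself read 10.05, 8.43 and 10.18 with APE1 siRNA and 12.20, 12.24 and 12.14 with control siRNA. With TSA it read 9.53, 9.53 and 9.55 with APE1 siRNA and 11.85, 11.77 and 11.77 with control siRNA. In BEAS-2B cells APEX1 read 10.61, 10.67 and 10.68 with RR, 10.39, 10.57 and 10.50 with ND42, and 10.85, 11.02 and 10.09 with WT, so the groups overlapped.

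The 6 genes of type IV collagen lie in the genome as 3 pairs that start head to head, and the members of each pair are transcribed in opposite directions from a short shared stretch. These stretches are shown because the pairs behaved unlike each other in the results that follow. They were read from RefSeq promoter sequences of GRCh38.p14 and are written on the + strand. Capitals mark a GC box (GGGCGG) or a CCAAT box (CCAAT) on either strand. No TATAA was found in any of the 3 stretches.
COL4A1 and COL4A2, chr13:110307158-110307283, the whole 126 bases between the outermost starts: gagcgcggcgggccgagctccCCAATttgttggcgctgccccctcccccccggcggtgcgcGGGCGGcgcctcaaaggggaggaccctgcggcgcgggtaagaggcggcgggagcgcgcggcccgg
COL4A4 and COL4A3, chr2:227164489-227164623, the whole 135 bases: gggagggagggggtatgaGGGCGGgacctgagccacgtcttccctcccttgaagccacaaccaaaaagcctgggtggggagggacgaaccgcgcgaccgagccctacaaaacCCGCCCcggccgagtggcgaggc
COL4A6 and COL4A5, chrX:108439588-108439837, the 250 of 379 bases next to the start of COL4A5: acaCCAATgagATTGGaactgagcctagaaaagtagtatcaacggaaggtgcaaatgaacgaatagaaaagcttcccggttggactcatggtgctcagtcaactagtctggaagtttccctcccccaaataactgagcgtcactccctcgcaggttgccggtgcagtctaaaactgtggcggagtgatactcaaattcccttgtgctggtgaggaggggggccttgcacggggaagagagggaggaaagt
The first stretch is 80.2% G and C, with 1 GC box and 1 CCAAT box, the second 68.1% with 2 GC boxes, and the third 51.2% with 2 CCAAT boxes. In the 250 bases before the start, 17 of the 31 collagen genes with a window (54.8%) held a GC box on either strand, against 42.6% of 35116 windows of all genes. A CCAAT box was found in 7 of them (22.6%), against 32.0% of all windows, and TATAA in 5 (16.1%), against 18.9%. These windows follow the start given in the promoter table, which is the outermost start of the gene for 25 of the 31. The COL4A4 window belongs to a start 283 bases further in and does not hold the stretch printed above. Each collagen gene entered with 1 window, while the 35116 hold every window of a gene with several, so the shares are not built alike. Such matches are letters only and were not set against the expression values.

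The lines differed in which collagen genes stood highest on their own arrays. They were normalized apart, so no test was made between them. In BEAS-2B cells the highest were COL1A1 at 12.53 (mean of 9 arrays, above 99.4% of all genes), COL5A2 at 11.75, COL4A2 at 11.29, COL4A1 at 10.76, COL12A1 at 10.33 and COL4A5 at 10.04. In A549 cells they were COL4A5 at 10.77 (mean of 12 arrays), COL4A1 at 10.70, COL4A2 at 10.42, COL1A1 at 10.39, COL13A1, a transmembrane collagen, at 9.15, and COL18A1, a basement membrane collagen whose C-terminal fragment is endostatin, at 9.06. Both chains of the main type IV network were thus among the highest in each line. Many of the other members were low. In BEAS-2B cells 15 of 43 lay above the highest of 6 leukocyte markers (CD14 at 6.90), taken here as a low reference level, and 18 above the median of all genes (6.66). In A549 cells 8 lay above the highest leukocyte marker (CD3E at 7.59) and 11 above the median (7.30). Some of the 6 markers were themselves called between BEAS-2B groups, so this level is a reference point and not a measured floor. COL1A2, whose product joins that of COL1A1 in type I collagen, averaged 6.27 in BEAS-2B and 6.64 in A549 cells, and COL3A1 averaged 4.81 and 4.99, both below those marker levels. Levels of different probe sets depend on their probes as well as on the mRNA, so these orders describe the arrays only.

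**Figure D1:**
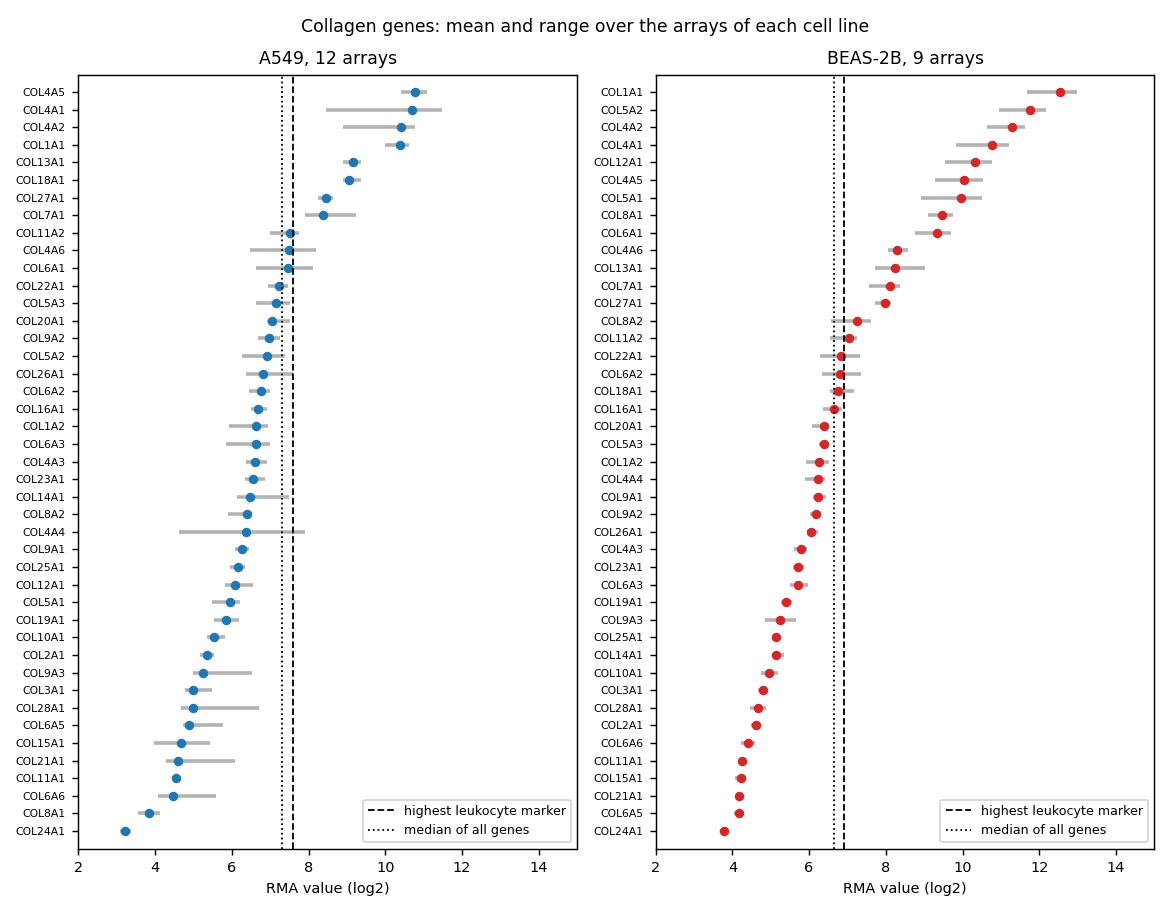
Mean (point) and range (grey bar) of the RMA log2 value of each of the 43 collagen genes over the 12 A549 arrays (left) and the 9 BEAS-2B arrays (right), ordered by mean, with the highest leukocyte marker (dashed) and the median of all genes (dotted). In A549 cells 8 genes lie right of the dashed line, led by COL4A5, and in BEAS-2B cells 15, led by COL1A1.

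The labelled epithelial identity was checked against marker genes. KRT18 averaged 11.56 and KRT8 10.34 in BEAS-2B cells, and 11.16 and 8.50 in A549 cells. KRT7 averaged 9.39 and 10.81. EPCAM averaged 5.51 and 4.78 and CDH1 6.28 and 5.40 in BEAS-2B and A549 cells, which is below the highest leukocyte marker of each line. The same holds for KRT19 (5.10 and 5.48), CLDN4 (6.60 and 7.20) and CLDN7 (6.68 and 6.24). The deposited values carry no detection calls, so whether EPCAM and CDH1, 2 defining markers, were present was not tested. Among 8 fibroblast markers, THY1 was high in BEAS-2B cells (10.38) and S100A4 and ACTA2 in A549 cells (10.28 and 9.39), while LUM averaged 4.62 in both. PDGFRB (7.56) also lay above the highest leukocyte marker in BEAS-2B cells, and the other fibroblast markers of each line lay below it.

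RR and ND42 cells were each compared with WT cells. The question was whether collagen mRNAs differ when the transfected APE1 lacks the lysines mutated in RR or its whole N-terminus. The other lysines of RR APE1 and the cells' own APE1 were left unchanged. In RR cells 20 of 43 collagen genes were called (46.5%), 17 higher and 3 lower, where 26.0% of all genes were called, 14.1% higher and 11.9% lower. In ND42 cells 15 were called (34.9%), 14 higher and 1 lower, where 17.8% of all genes were called, 10.3% higher and 7.50% lower. The median log2 fold change over the 43 genes was 0.10 in RR and 0.07 in ND42 cells, against -0.01 and 0.00 over all genes. Both comparisons use the same 3 WT arrays, so their values are set side by side and are not independent of each other. The collagen genes called stood higher on the arrays than the others: in the RR comparison their median level was 8.26, against 5.13 for the 23 not called, and in the ND42 comparison 9.46, against 5.70 for the 28 not called. By class, the genes higher in RR cells were 5 of 11 fibril-forming, 4 of 6 type IV, 2 of 6 beaded filament, 2 of 10 FACIT, 2 of 3 short-chain, the single anchoring fibril gene and 1 of 2 endostatin-type genes. In ND42 cells they were 4 fibril-forming, 3 type IV, 2 beaded filament, 2 FACIT, 2 short-chain and the anchoring fibril gene.

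**Figure D2:**
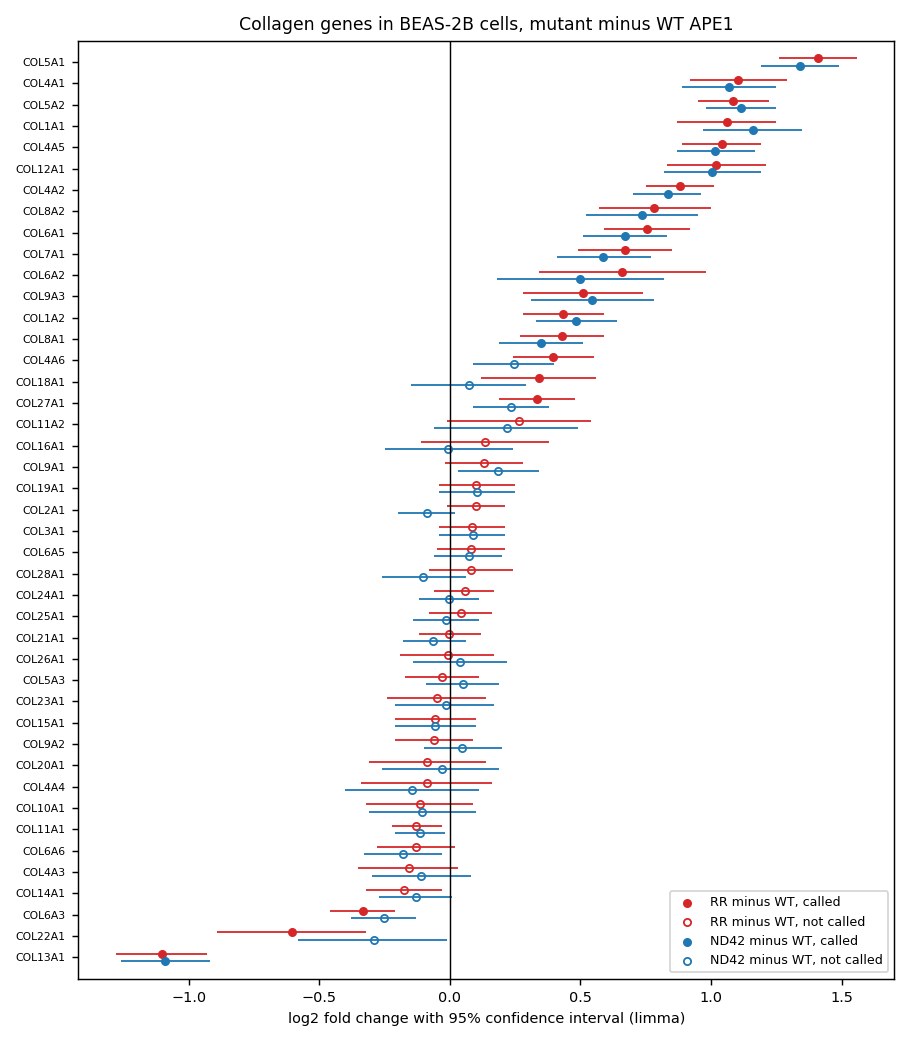
Log2 fold change (x axis, with the 95% confidence interval from limma) of each of the 43 collagen genes in BEAS-2B cells, RR minus WT in red and ND42 minus WT in blue. Filled points are called; most lie right of 0, up to COL5A1 at 1.41 and 1.34, and COL13A1 lies farthest left at -1.10 and -1.09.

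Type V collagen, which regulates the diameter of type I fibrils, gave the largest value at the probe sets by which the genes were read. COL5A1 read 10.49, 10.50 and 10.41 in RR, 10.42, 10.40 and 10.37 in ND42, and 9.08, 9.17 and 8.91 in WT cells. Every mutant array lay above every WT array, by 2.66-fold in RR (log2 fold change 1.41, SE 0.07, adjusted p = 1.23e-06 by limma) and 2.53-fold in ND42 cells (1.34, SE 0.07, adjusted p = 1.73e-06). All 3 COL5A1 probe sets were called in both comparisons. COL5A2, its partner chain, read 12.10, 12.18 and 12.02 in RR, 12.18, 12.12 and 12.09 in ND42, and 11.08, 11.03 and 10.95 in WT cells. It rose by 1.08 log2 units in RR (SE 0.06, adjusted p = 2.65e-06) and by 1.11 in ND42 cells (SE 0.06, adjusted p = 2.49e-06), and both its probe sets were called. COL5A3, the third type V chain, stood at log2 fold changes of -0.03 and 0.05 and was not called.

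COL1A1, the major chain of type I collagen, read 12.82, 12.81 and 12.93 in RR, 12.98, 12.92 and 12.96 in ND42, and 12.01, 11.67 and 11.70 in WT cells. The log2 fold changes were 1.06 in RR (SE 0.08, adjusted p = 2.05e-05) and 1.16 in ND42 cells (SE 0.08, adjusted p = 1.50e-05). The gene is read near the top of the scale here, and its 4 other probe sets gave unlike sizes. At 202311_s_at the values were 9.33, 9.32 and 9.38 in RR, 9.44, 9.36 and 9.42 in ND42, and 7.26, 7.18 and 7.17 in WT cells, a log2 fold change of 2.14 and 2.20, and at 202310_s_at it was 1.76 and 1.63, while 202312_s_at and 217430_x_at were not called. COL1A2 read 6.28, 6.40 and 6.50 in RR, 6.33, 6.48 and 6.51 in ND42, and 5.92, 5.98 and 5.98 in WT cells. At this probe set the rise was smaller, 0.43 and 0.48 (SE 0.07 each, adjusted p = 0.00121 and 0.000822), at a level below the leukocyte marker. Of the 3 COL1A2 probe sets 2 were called in each comparison. The 3 ran from -0.18 to 0.77 in RR and from 0 to 0.85 in ND42 cells. The fifth fibril-forming gene called in RR cells was COL27A1, at 8.07, 8.14 and 8.13 in RR, 8.0, 8.11 and 7.93 in ND42, and 7.71, 7.74 and 7.87 in WT cells. Its RR fold change of 0.33 sat just past the fold minimum, only 1 of its 5 probe sets was called, and the mean of the 5 gave -0.02.

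Of the type IV pairs, both genes of the first rose. COL4A1 read 11.21, 11.12 and 11.09 in RR, 11.13, 11.10 and 11.07 in ND42, and 10.18, 10.08 and 9.84 in WT cells. COL4A2 read 11.57, 11.57 and 11.64 in RR, 11.62, 11.52 and 11.50 in ND42, and 10.73, 10.78 and 10.63 in WT cells. No mutant array overlapped the WT arrays for either gene. The rises were 1.11 (SE 0.08, adjusted p = 1.45e-05) and 1.07 (SE 0.08, adjusted p = 2.01e-05) for COL4A1 and 0.88 (SE 0.06, adjusted p = 7.44e-06) and 0.83 (SE 0.06, adjusted p = 1.20e-05) for COL4A2, in RR and ND42 cells in turn, and both probe sets of each gene were called. COL4A5, mutated in Alport syndrome, read 10.35, 10.54 and 10.31 in RR, 10.39, 10.34 and 10.39 in ND42, and 9.41, 9.37 and 9.28 in WT cells, a rise of 1.04 and 1.02 (SE 0.07 each, adjusted p = 6.49e-06 and 8.90e-06). Its neighbour COL4A6 read 8.57, 8.51 and 8.32 in RR, 8.35, 8.22 and 8.37 in ND42, and 8.07, 8.08 and 8.06 in WT cells, with a log2 fold change of 0.40 in RR (SE 0.07, adjusted p = 0.00209) and of 0.25 in ND42 cells, which missed the fold minimum. Only 1 of the 3 COL4A6 probe sets was called, and their mean gave -0.01 in RR cells. Of the 2 COL4A5 probe sets only the one read was called, and the other stood at 0.17 in RR and 0.06 in ND42 cells. The pair of COL4A3 and COL4A4 was not called at the probe sets read (log2 fold changes of -0.16 to -0.09), although another COL4A4 probe set, 229779_at, was 0.33 higher in ND42 cells, at 4.44, 4.61 and 4.69 against 4.08, 4.33 and 4.34 in WT cells.

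**Figure D3:**
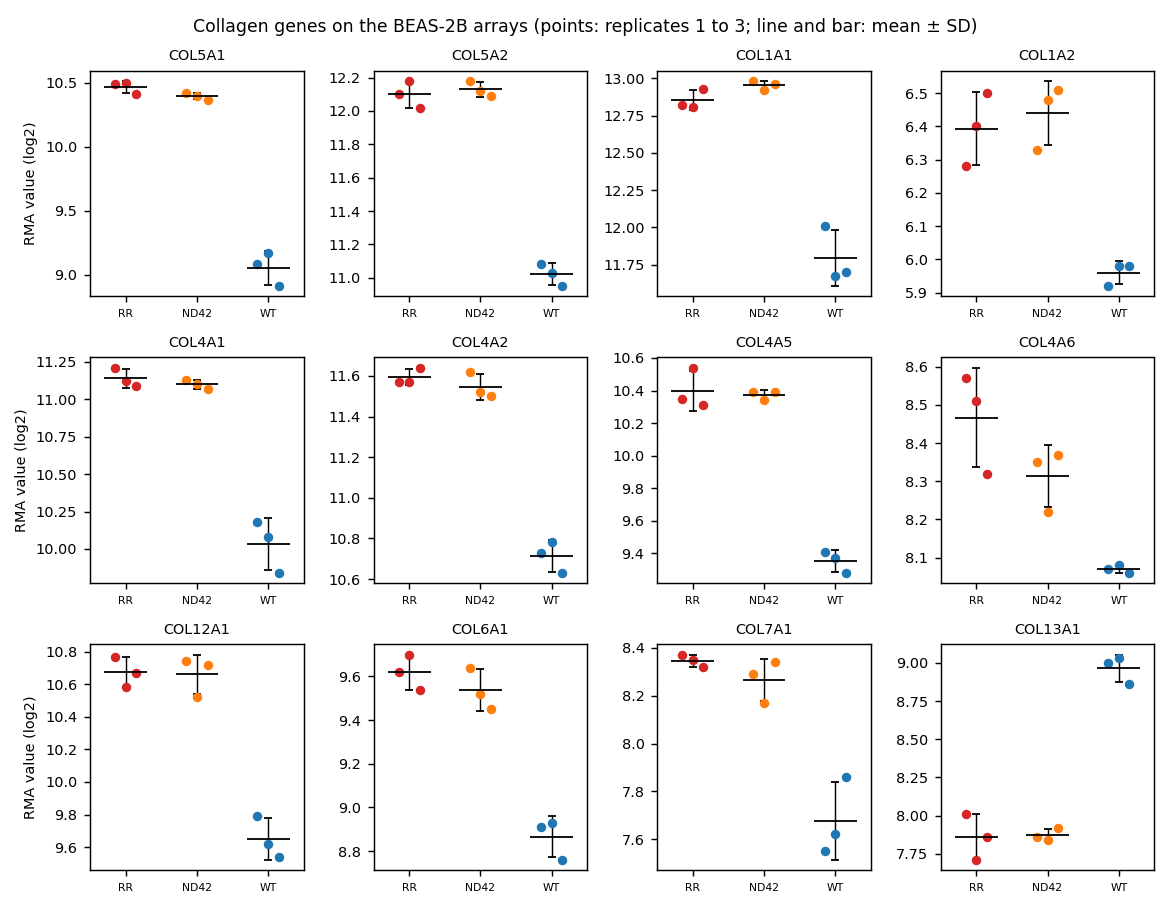
RMA log2 value of 12 collagen genes on each BEAS-2B array, with the mean and SD of the 3 replicates of RR, ND42 and WT cells; each panel has its own y axis. The RR and ND42 points lie above the WT points in 11 panels and below them for COL13A1.

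Genes of the remaining classes moved less uniformly. COL12A1, a FACIT collagen of fibril surfaces, read 10.77, 10.58 and 10.67 in RR, 10.74, 10.52 and 10.72 in ND42, and 9.79, 9.62 and 9.54 in WT cells (log2 fold changes 1.02 and 1.00, SE 0.08 each, adjusted p = 2.43e-05 and 3.33e-05), with 3 of its 5 probe sets called. COL9A3, a FACIT chain known from cartilage, rose by 0.51 and 0.54 at the low level of 4.90 in WT cells. COL6A1 read 9.62, 9.70 and 9.54 in RR, 9.64, 9.52 and 9.45 in ND42, and 8.91, 8.93 and 8.76 in WT cells (0.75 and 0.67, SE 0.07 each, adjusted p = 5.67e-05 and 0.000142). Of its 8 probe sets 3 were called in RR and 1 in ND42 cells. Its partners differed: COL6A2 rose by 0.66 (adjusted p = 0.00626) and 0.50 (adjusted p = 0.0342), the ND42 call being lost without any 1 of the 6 ND42 and WT arrays, and COL6A3 fell by 0.33 in RR cells (5.58, 5.50 and 5.62, against 5.96, 5.82 and 5.92 in WT) and stood at -0.25 in ND42 cells. COL7A1 read 8.37, 8.35 and 8.32 in RR, 8.29, 8.17 and 8.34 in ND42, and 7.55, 7.62 and 7.86 in WT cells (0.67 and 0.59, SE 0.08 each, adjusted p = 0.000226 and 0.000635). The short-chain network genes COL8A1 and COL8A2, known from vessel walls and the cornea, rose by 0.43 and 0.78 in RR and by 0.35 and 0.74 in ND42 cells. COL18A1 was called at 0.34 in RR cells (adjusted p = 0.022). Where COL6A2, COL7A1, COL8A1, COL8A2 and COL18A1 were called, only the probe set read was. In RR and ND42 cells the other stood at 0.22 and 0.26 for COL6A2, 0.18 and 0.20 for COL7A1 and 0.31 and 0.26 for COL8A2. For COL18A1 it stood at 0.17 in RR cells, and the lowest of the 3 COL8A1 probe sets at 0.04 and -0.01.

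The falls were few. COL13A1 read 8.01, 7.71 and 7.86 in RR, 7.86, 7.84 and 7.92 in ND42, and 9.0, 9.03 and 8.86 in WT cells, and was thus 2.15-fold lower in RR (log2 fold change -1.10, SE 0.08, adjusted p = 1.13e-05) and 2.13-fold lower in ND42 cells (-1.09, SE 0.08, adjusted p = 1.35e-05). Its other 2 probe sets were also lower, by 0.36 and 0.38 in RR cells, where they were called, and by 0.18 and 0.23 in ND42 cells, where they were not. COL22A1, a FACIT collagen of tissue junctions, read 6.50, 6.28 and 6.84 in RR, 6.85, 6.85 and 6.85 in ND42, and 7.06, 7.04 and 7.33 in WT cells. It fell by 0.60 in RR cells (SE 0.13, adjusted p = 0.00538) and stood at -0.29 in ND42 cells (adjusted p = 0.152). The RR call rested on 1 of its 3 probe sets, the other 2 stood at 0.13 and 0.25, and the mean of the 3 was not called (-0.08, adjusted p = 0.388).

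The mutants were then compared with each other. No collagen gene was called in ND42 against RR cells, as was no gene at all (0% of 19775, limma), and 4 collagen genes had an unadjusted p under 0.05. Over the 43 genes the log2 fold changes ran between -0.27 and 0.31, with 95% confidence limits between -0.49 and 0.60. For COL5A1 the difference was -0.07 (95% confidence interval -0.22 to 0.08), for COL1A1 0.10 (-0.09 to 0.29) and for COL4A1 -0.04 (-0.22 to 0.14). For genes called in RR and not in ND42 cells it was -0.27 for COL18A1 (-0.49 to -0.05), 0.31 for COL22A1 (0.03 to 0.60), -0.15 for COL4A6 (-0.31 to 0.01), -0.10 for COL27A1 (-0.24 to 0.05) and 0.08 for COL6A3 (-0.05 to 0.21). None of these 5 differences was called (adjusted p of 0.323 to 0.551, limma). Leaving out RR replicate 3 gave 1 collagen gene called.

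Genes that act on collagens were read in lists of enzymes and chaperones of the chain (20 measured), propeptide cleavage and cross-linking (14), receptors (10) and binding partners in the matrix (15). Beside their counts stand the 26.0% (RR) and 17.8% (ND42) of all genes called. In RR and ND42 cells 9 and 7 of the 20 enzymes and chaperones rose and none fell. P4HA1, which hydroxylates prolines, rose by 1.03 and 0.92 in RR and ND42 cells (SE 0.05 each, adjusted p = 1.48e-06 and 2.90e-06), PLOD1, a lysyl hydroxylase, by 0.77 and 0.71, P3H2 by 0.81 and 0.69, and the folding helper FKBP14 by 0.68 and 0.61. Of the 14 cleavage and cross-linking genes 5 rose and 3 fell in RR, and 5 rose and 2 fell in ND42 cells. LOX, the lysyl oxidase, rose by 0.66 and 0.64, ADAMTS3 by 0.81 and 0.77, LOXL1 by 0.49 and 0.34 and BMP1, the procollagen C-proteinase, by 0.49 and 0.53, while the transglutaminase TGM2 fell by 0.84 and 0.79. The 10 receptors went both ways, 2 up and 3 down in RR, and 2 up and 2 down in ND42 cells. The integrin chain ITGA1, which prefers type IV collagen, rose by 1.32 and 1.36, and ITGA2, which prefers type I, was lower at log2 fold changes of -1.59 and -1.53 (adjusted p = 1.96e-06 and 2.47e-06). MRC2, a receptor that takes collagen into the cell, rose by 0.67 and 0.65, and CD44 fell by 0.69 and 0.73. Among the 15 matrix partners 9 rose and 2 fell in RR, and 8 rose and none fell in ND42 cells. The microfibril gene FBN1 rose by 1.47 in both, NID1, which links laminin to type IV collagen, by 1.17 and 1.09, MATN2 by 0.98 and 0.87, and HSPG2, the perlecan gene, by 0.68 and 0.65.

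Markers of other cell types were read on the same arrays. Of 8 fibroblast markers, PDGFRB rose by 0.93 in RR and 0.83 in ND42 cells, DCN fell by 0.35 in RR cells, and no other was called. The mean of the 8 was 6.66 to 6.68 on the RR, 6.64 to 6.66 on the ND42, and 6.48 to 6.58 on the WT arrays. LUM, a defining marker, averaged 4.62. Of the 6 leukocyte markers, 1 was called higher and 2 lower in RR cells, and 1 higher in ND42 cells. Of 6 endothelial markers, 1 was called lower in RR and 1 lower in ND42 cells. Beside these stand 26.0% and 17.8% of all genes called. Of 8 epithelial markers, CDH1 rose by 1.16 and 1.07 and KRT7 fell by 1.32 and 1.43, and their mean was 7.61 to 7.66 on the RR, 7.64 to 7.67 on the ND42, and 7.73 to 7.79 on the WT arrays. The hybridization spike controls were higher by a median of 0.26 in RR and 0.19 in ND42 than in WT arrays. The part of these in the collagen values was not tested.

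In A549 cells the question was whether collagen mRNAs change when APE1 is depleted. Without TSA, 4 of 43 collagen genes were called (9.30%), 2 higher and 2 lower, where 4.94% of all genes were. With TSA, 3 were called (6.98%), 1 higher and 2 lower, where 5.28% of all genes were. The median log2 fold change over the 43 genes was 0.03 in both, against -0.03 and 0.02 over all genes. These shares rest on few genes, and with all probe sets of a gene averaged the counts were 2 and 1. The GAPDH 3′ to 5′ difference was 0.57 and 0.60 on APE1 siRNA replicates 1 and 3, and 0.03 to 0.16 on control siRNA arrays. With TSA it was 0.47 to 0.71 with APE1 siRNA and 0.04 to 0.12 with control siRNA. For ACTB it was 0.58 and 0.43 against 0.13 to 0.35, and with TSA 0.90 to 1.05 against 0.54 to 0.87. The part of these differences in the collagen values was not tested.

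COL4A6 read 7.63, 7.60 and 7.76 with APE1 siRNA and 6.58, 6.77 and 6.46 with control siRNA. With TSA it read 8.15, 8.19 and 8.13 with APE1 siRNA and 7.63, 7.53 and 7.61 with control siRNA. It rose 2.09-fold without TSA (log2 fold change 1.06, SE 0.08, adjusted p = 7.91e-05) and 1.48-fold with TSA (0.56, SE 0.08, adjusted p = 0.00339), and without APE1 siRNA replicate 2 the values were 1.10 and 0.56. Only 1 of its 3 probe sets was called in each. The others stood at 0.00 and 0.20 without TSA and at -0.01 and -0.30 with TSA, and the mean of the 3 was called without TSA (0.42, adjusted p = 0.039) and not with TSA (0.08, adjusted p = 0.911). COL4A5, its neighbour, read 11.00, 10.80 and 11.09 with APE1 siRNA and 10.67, 10.70 and 10.80 with control siRNA. Its log2 fold changes of 0.24 without TSA and 0.32 with TSA were not called (adjusted p = 0.208 and 0.0723). Without APE1 siRNA replicate 2 both were 0.32 (SE 0.08 and 0.07, adjusted p = 0.0155 and 0.00617 by limma). These were still not called, because before rounding they fell just short of the fold minimum.

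COL15A1, an endostatin-type collagen of basement membrane zones with 1 probe set, read 4.48, 4.12 and 4.15 with APE1 siRNA and 5.09, 5.26 and 5.18 with control siRNA. With TSA it read 3.96, 4.05 and 3.96 with APE1 siRNA and 5.23, 5.42 and 5.12 with control siRNA. Its log2 fold changes were -0.93 and -1.27 (SE 0.11 each, adjusted p = 0.000911 and 0.000106), at levels below the highest leukocyte marker. COL6A1 read 7.04, 6.62 and 7.04 with APE1 siRNA and 7.74, 7.83 and 7.88 with control siRNA, and 7.11, 7.29 and 7.20 with APE1 siRNA + TSA and 7.88, 7.91 and 8.12 with control siRNA + TSA. It was called lower at log2 fold changes of -0.92 and -0.77 (SE 0.12 each, adjusted p = 0.00162 and 0.00409), but at only 1 of its 8 probe sets, 213428_s_at. Of the 8, only 4 were lower without TSA and 2 with TSA, and the highest stood at 0.57 and 0.21. The values without APE1 siRNA replicate 2 were -0.86 and -1.27 for COL15A1 and -0.78 and -0.77 for COL6A1. COL5A2 read 6.91, 7.04 and 6.93 with APE1 siRNA and 6.50, 6.25 and 6.34 with control siRNA, a rise of 0.60 without TSA (SE 0.11, adjusted p = 0.0135) that was lost without control siRNA replicate 2 or 3 (adjusted p of 0.0609 to 0.0678). The rise was 0.56 without APE1 siRNA replicate 2 (adjusted p = 0.006). With TSA the COL5A2 groups overlapped. Over all arrays the other of its 2 probe sets stood at 0.45 without TSA and was not called.

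COL4A1 depended on 1 array. It read 10.98, 8.44 and 11.06 with APE1 siRNA and 10.53, 10.56 and 10.51 with control siRNA, so replicate 2 lay below all control arrays and the other 2 replicates above them. With TSA it read 11.43, 11.41 and 11.48 with APE1 siRNA and 10.61, 10.69 and 10.72 with control siRNA. Over all arrays the log2 fold changes were -0.37 without TSA (SE 0.55, adjusted p = 0.736) and 0.76 with TSA (SE 0.55, adjusted p = 0.696). Without replicate 2, which is known from its low correlation and its 3′ to 5′ difference, COL4A1 was called higher in both, at 0.49 (SE 0.06, adjusted p = 2.52e-04) and 0.76 (SE 0.06, adjusted p = 1.21e-06), where 9.21% and 10.6% of all genes were called. COL4A2 likewise read 10.39, 8.89 and 10.45 with APE1 siRNA and 10.39, 10.43 and 10.54 with control siRNA, and was called in neither set of arrays.

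**Figure D4:**
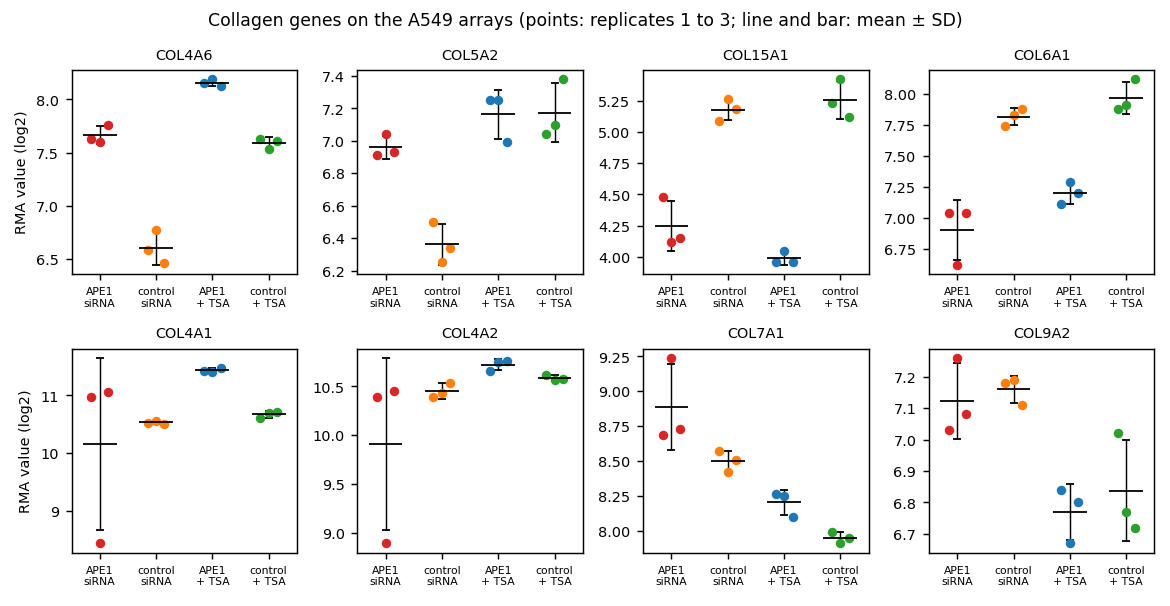
RMA log2 value of 8 collagen genes on each A549 array, with the mean and SD of the 3 replicates of APE1 siRNA, control siRNA, APE1 siRNA + TSA and control siRNA + TSA cells; each panel has its own y axis. At the probe sets read, COL4A6 lies higher and COL15A1 and COL6A1 lower with APE1 siRNA with and without TSA. For COL4A1 (8.44) and COL4A2 (8.89), 1 APE1 siRNA array lies far below the other replicates.

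Of the genes that act on collagens, few were called after APE1 siRNA, 2 of 20 enzymes and chaperones, 1 of 10 receptors and 2 of 15 matrix partners without TSA and 1 of each list with TSA, where 4.94% and 5.28% of all genes were. PLOD3, a lysyl hydroxylase and glycosyltransferase, fell by 0.52 without TSA and 0.53 with TSA (adjusted p = 0.000523 and 0.000397), and ITGA2 rose by 0.93 and 0.91 (adjusted p = 0.000155 and 0.000133). THBS1, the thrombospondin gene, fell by 0.89 and 0.45, and P3H2 and NID2 fell without TSA by 0.57 and 0.33. None of the 14 cleavage and cross-linking genes was called in either. Without APE1 siRNA replicate 2, where 9.21% and 10.6% of all genes were called, the enzymes and chaperones called were 3 higher and 4 lower without TSA and 3 lower with TSA, the receptors 3 higher, and with TSA 1 lower as well, and the matrix partners 4 higher and 1 lower without TSA and 2 higher and 1 lower with TSA. TGM2 was then called lower (-0.48 and -0.41) and LOXL2 higher (0.33 and 0.32), PLOD3 stood at -0.47 and -0.53, ITGA2 at 1.00 and 0.91, THBS1 at -0.87 and -0.45 and P3H2 at -0.42, and the NID2 call was lost (-0.26).

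TSA was compared with no TSA within each siRNA. In control siRNA cells 6 collagen genes were called (14.0%), 3 higher and 3 lower, where 20.9% of all genes were. The split moved with the processing: further quantile normalization gave 3 higher and 0 lower, centring of the arrays and the replicate block 3 higher and 1 lower each, and array weights 4 higher and 1 lower. In APE1 siRNA cells 8 were called (18.6%), 4 higher and 4 lower, where 25.1% of all genes were. Both shares rest on few genes. Leaving out single arrays gave counts of 3 to 7 in control siRNA and 6 to 10 in APE1 siRNA cells. With all probe sets of a gene averaged the counts were 4 and 3. The spike controls, which are added to the sample before hybridization, were higher with TSA by a median of 0.61 in control siRNA (-1.79 to 0.82) and 0.63 in APE1 siRNA cells (-1.52 to 2.26), and their part in these values was not tested. The ACTB 3′ to 5′ difference was 0.54 to 0.87 on control siRNA + TSA arrays and 0.13 to 0.35 on control siRNA arrays.

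COL4A4 showed the largest change of any collagen gene at the probe sets read. At 229779_at it read 7.89, 7.91 and 7.91 in control siRNA + TSA cells and 5.10, 5.47 and 4.62 in control siRNA cells, and 7.59, 7.35 and 7.54 in APE1 siRNA + TSA cells and 5.09, 4.68 and 5.22 in APE1 siRNA cells. It rose 7.15-fold (log2 fold change 2.84, SE 0.20, adjusted p = 4.99e-06) and 5.65-fold (2.50, SE 0.20, adjusted p = 9.29e-06), and all TSA arrays lay above the median of all genes (7.30). The values without TSA lie below the highest leukocyte marker, and whether the probe set was above background there was not tested, so the folds are those of the RMA values. Without APE1 siRNA replicate 2 the values were 2.84 and 2.34. The other COL4A4 probe sets moved less. At 214602_at the log2 fold change was 0.74 in control siRNA (called) and 0.10 in APE1 siRNA cells (0.12 without that array), and at 241565_at it was -0.26 and -0.15.

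COL4A3, which starts head to head with COL4A4, gave a divided answer. The probe set by which it was read, 214641_at, stood at 0.00 and -0.07, and of its 7 probe sets the 6 not called in control siRNA cells ran from -0.13 to 0.17. At 222073_at the gene read 7.21, 7.33 and 7.45 in control siRNA + TSA cells and 5.21, 4.95 and 4.84 in control siRNA cells, 2.33 log2 units higher with TSA (SE 0.12, adjusted p = 6.21e-07). At the same probe set it read 7.54, 7.69 and 7.32 in APE1 siRNA + TSA cells and 6.04, 5.96 and 6.0 in APE1 siRNA cells, 1.52 log2 units higher with TSA (SE 0.12, adjusted p = 7.68e-06). It was also 1.00 higher in APE1 siRNA than in control siRNA cells without TSA (adjusted p = 0.000901). These differences were 2.33, 1.5 and 1.02 without APE1 siRNA replicate 2, all called. This probe set was chosen after its values were seen and lies outside the counts, and which transcripts of the gene each probe set detects was not analysed here.

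**Figure D5:**
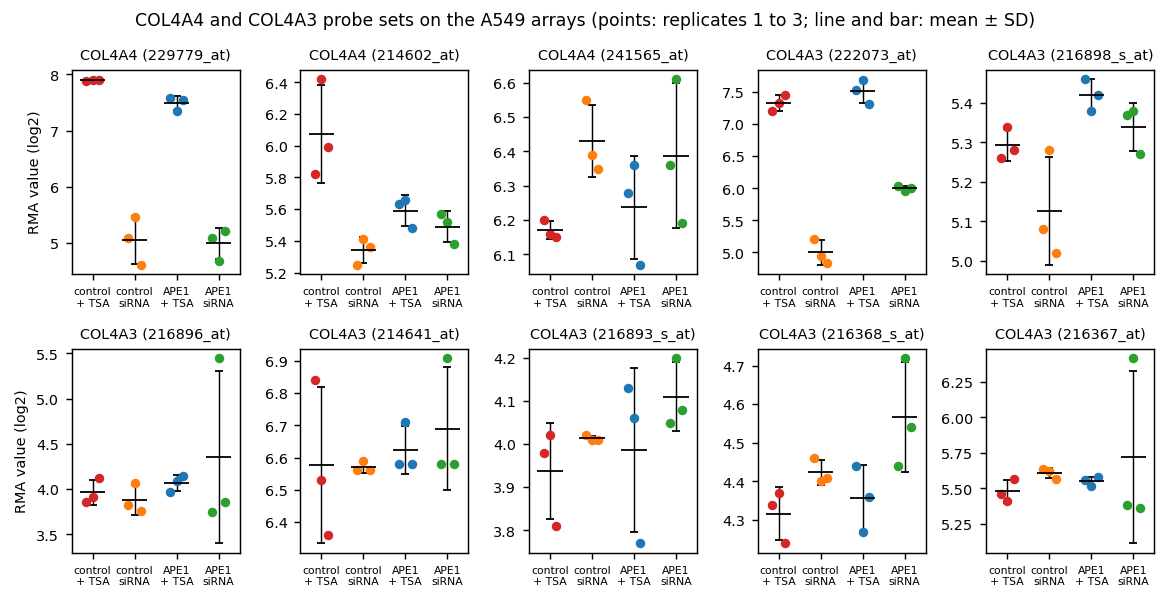
RMA log2 value of the 3 COL4A4 probe sets (first panels) and the 7 COL4A3 probe sets on each A549 array, with the mean and SD of the 3 replicates of control siRNA + TSA, control siRNA, APE1 siRNA + TSA and APE1 siRNA cells; each panel has its own y axis. Both TSA groups lie above both groups without TSA at 229779_at and 222073_at, and at 214641_at, by which COL4A3 was read, they overlap.

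Among the other TSA calls, COL4A6 rose by 0.99 in control siRNA (adjusted p = 1.81e-05) and 0.49 in APE1 siRNA cells (adjusted p = 0.00163), or 0.46 without replicate 2. Of its 3 probe sets 2 were called in control siRNA and 1 in APE1 siRNA cells, and the mean of the 3 was called in control siRNA (0.53, adjusted p = 0.0026) and not in APE1 siRNA cells (0.19, adjusted p = 0.169). COL5A2 read 7.04, 7.10 and 7.38 in control siRNA + TSA and 6.50, 6.25 and 6.34 in control siRNA cells, a rise of 0.81 (adjusted p = 0.000446), and it overlapped between APE1 siRNA + TSA and APE1 siRNA cells. COL7A1 read 7.99, 7.91 and 7.95 in control siRNA + TSA and 8.57, 8.42 and 8.51 in control siRNA cells, and 8.26, 8.25 and 8.10 in APE1 siRNA + TSA and 8.69, 9.24 and 8.73 in APE1 siRNA cells. It fell by 0.54 (adjusted p = 0.0127) and 0.68 (adjusted p = 0.00319), or by 0.50 in APE1 siRNA cells without replicate 2. Its other probe set stood at -0.09 and 0.07, and the other COL5A2 probe set at 0.08 in control siRNA cells, and these were not called. COL9A2 fell by 0.32 and 0.36, and its other probe set stood at -0.21 and -0.20 and was not called. COL19A1 fell by 0.34 in control siRNA cells, a call lost without any 1 of 8 of the 12 arrays, and in APE1 siRNA cells COL12A1 and COL23A1 fell by 0.37 and 0.34 while COL6A2 and COL5A3 rose by 0.36 and 0.46. COL12A1 was called at 1 of its 5 probe sets, and COL6A2 and COL5A3 at 1 of 2 each. Without APE1 siRNA replicate 2 the calls of COL9A2, COL12A1 and COL23A1 in APE1 siRNA cells were lost, and those of COL4A1 (0.42), COL26A1 (0.44) and COL15A1 (-0.33) were gained, where 33.2% of all genes were called, while COL6A2 stood at 0.40 and COL5A3 at 0.33. COL5A3 was then also called in control siRNA cells (0.34), where 30.8% of all genes were. COL4A2 was not called where it was read (211964_at), but at 211966_at, a probe set chosen after its values were seen, it stood 1.01 lower in control siRNA and 0.70 lower in APE1 siRNA cells with TSA, or 0.82 lower in the APE1 siRNA cells without replicate 2.

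The genes that act on collagens were read with TSA as well. FKBP14 rose by 1.63 in control siRNA and 1.83 in APE1 siRNA cells (SE 0.09 each, adjusted p = 1.11e-06 and 4.01e-07), and SERPINH1, the collagen chaperone HSP47, fell by 1.44 and 1.42 (SE 0.32 each, adjusted p = 0.00956 and 0.00903). Of the 20 enzymes and chaperones 3 rose and 2 fell in control siRNA and 3 rose and 1 fell in APE1 siRNA cells, where 20.9% and 25.1% of all genes were called. TMEM38B rose by 0.69 and 0.72, PLOD1 by 0.41 in control siRNA and P3H2 by 0.43 in APE1 siRNA cells. Of the 15 matrix partners 3 and 5 rose and none fell beside the same background, with THBS1 at 1.31 and 1.75, FN1 at 0.58 and 0.70, FBN1 at 0.62 and 0.66 and, in APE1 siRNA cells, NID2 at 0.38. ITGA2 fell by 0.46 and 0.48. No cleavage and cross-linking gene was called. Without APE1 siRNA replicate 2, where 30.8% and 33.2% of all genes were called, SERPINH1 stood at -1.44 and -1.92, FKBP14 at 1.62 and 1.86, THBS1 at 1.31 and 1.73 and ITGA2 at -0.46 and -0.55. The enzymes and chaperones called were then 6 higher and 3 lower in control siRNA and 3 higher and 3 lower in APE1 siRNA cells, the receptors 2 higher and 1 lower in both, and the calls of P3H2 (0.28) and NID2 (0.32) in APE1 siRNA cells were lost.

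Whether TSA acts differently after APE1 siRNA was tested as the interaction of both. No collagen gene was called (limma), where 0.121% of all genes were, and 3 had an unadjusted p under 0.05. The smallest p was that of COL4A6, whose log2 fold change with APE1 siRNA was 0.50 smaller with TSA than without (95% confidence interval of the difference -0.76 to -0.24, adjusted p = 0.276). Without APE1 siRNA replicate 2 this difference was -0.53 and was called (adjusted p = 0.0453), where 1.81% of all genes were. On the same arrays 2 of the 20 enzymes and chaperones were called, P3H2 at a difference of 0.44 (adjusted p = 0.0215) and SERPINH1 at -0.48 (adjusted p = 0.0277), where none was over all arrays. For COL5A2 the difference was -0.60 (-0.95 to -0.26, adjusted p = 0.328).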

How the data were processed

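The authors processed the CEL files with the affy package by RMA (background correction and quantile normalization) and fitted limma. For both tools the version is not given in the sources used here. Log2 values were deposited as a series table with 1 column per array, and their medians and spreads show that A549 and BEAS-2B arrays were normalized apart. The 4 deposited comparison tables hold the authors' own log2 fold changes and p-values and were not used. All 21 arrays were mapped to a group from the labels.

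limma 3.58.1 (R 4.3.3; lmFit, eBayes) was fitted with 1 mean per group, separately for the 12 A549 and the 9 BEAS-2B arrays. After removal of 62 platform controls, Benjamini-Hochberg adjustment covered 54613 probe sets. Probe sets with 1 gene symbol numbered 41091, with several 1801 and with none 11721. Differences are mutant minus WT, ND42 minus RR, APE1 siRNA minus control siRNA, and with TSA minus without. The fits were tested on simulated data with known changes. The number of arrays, 3 a group, limits the precision.

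The members and lists were chosen with earlier results of these data known. Named were all collagen genes called, the 6 highest in each line, the type IV pairs, and up to 4 called genes per list and comparison with the smallest adjusted p; others named are marked as such. Alternatives were further quantile normalization, centring of arrays, array weights, eBayes with trend and robust settings, a minimum mean log2 of 6, no minimum fold, averaging all probe sets of a gene, the compared arrays only, the replicate number as a block, and leaving out each array.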

Additional observations from a re-analysis of the deposited data

How the results depend on the processing

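Of 56 calls of a collagen gene, 42 were kept whichever single array was left out, and over 1030 values under all alternatives 936 kept call and direction, 92 lost the call and 2 turned, both with the mean of the probe sets in RR against WT cells (COL27A1 -0.02, COL4A6 -0.01). The 1030 include omissions of arrays outside the groups compared. These leave the fold change as it was and move only the error, so such values could not turn and the 936 overstate how stable the calls are. With the mean of the probe sets the collagen count fell to 2 (of 4) for APE1 siRNA without TSA, 1 (of 3) with TSA and 3 (of 8) for TSA in APE1 siRNA cells. With only the arrays compared it was 2, 5 and 4 for the same comparisons. Array weights gave 5 for APE1 siRNA with TSA and 1 for the interaction. Further quantile normalization gave 3 for TSA in control siRNA cells, all higher, and centring gave 4, 3 higher and 1 lower, against 6, 3 higher and 3 lower. Further quantile normalization without A549 APE1 siRNA replicate 2, chosen after seeing the data, gave 5 for APE1 siRNA with TSA (3 higher, 2 lower), 6 without TSA (4 and 2), 6 for TSA in control siRNA (4 and 2) and 7 in APE1 siRNA cells (6 and 1).

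Leaving out 1 array at a time gave 3 to 5 collagen genes for APE1 siRNA without TSA, 3 to 4 with TSA, 3 to 7 for TSA in control siRNA cells (3 without control siRNA replicate 1), 6 to 10 in APE1 siRNA cells, 0 to 1 for the interaction (1 without APE1 siRNA replicate 2), 17 to 20 for RR against WT, 13 to 15 for ND42 against WT, and 0 to 1 for ND42 against RR (1 without RR replicate 3).

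The labels number replicates 1 to 3 in each group, but the correlation of residuals between equally numbered arrays ran from -0.079 to 0.264 in A549 and from -0.033 to 0.201 in BEAS-2B cells, and they were not treated as pairs. With the replicate block the counts were 4 and 3 for APE1 siRNA without and with TSA, 4 and 7 for TSA in control and APE1 siRNA cells, 0 for the interaction, 20 and 15 for RR and ND42 against WT, and 0 for ND42 against RR.

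Single arrays undid 14 calls. For APE1 siRNA without TSA, COL5A2 was lost without control siRNA replicate 2 or 3 (0.54 to 0.59, adjusted p of 0.0609 to 0.0678). For TSA in control siRNA cells, COL7A1 was lost without control siRNA replicate 1 (-0.51, adjusted p = 0.051), COL9A2 without any control siRNA array or control siRNA + TSA replicate 2 or 3 (-0.35 to -0.27), and COL19A1 without any array of these 2 groups or APE1 siRNA + TSA replicate 2 or 3 (-0.38 to -0.29). For TSA in APE1 siRNA cells, COL12A1 (-0.30 to -0.26) and COL9A2 (-0.31 to -0.29) were lost without APE1 siRNA replicate 2 or APE1 siRNA + TSA replicate 2, COL23A1 without APE1 siRNA replicate 2 or APE1 siRNA + TSA replicate 3 (-0.31 to -0.29), COL5A3 without APE1 siRNA + TSA replicate 3 (0.38) and COL6A2 without APE1 siRNA replicate 3 (0.29). For RR against WT, COL18A1 was lost without RR replicate 1 or WT replicate 1 or 3 (0.23 to 0.34), COL27A1 without RR replicate 2 or WT replicate 1 or 2 (0.30 to 0.32) and COL6A3 without RR replicate 2 or WT replicate 1 (-0.30). For ND42 against WT, COL6A2 was lost without any ND42 or WT array (0.46 to 0.55) and COL8A1 without ND42 replicate 1 or WT replicate 3 (0.29 to 0.31). The deposited values carry no detection calls, so signal over background is not known. All 7 calls in the APE1 siRNA comparisons were of genes whose mean over the 12 A549 arrays lay below the highest leukocyte marker (7.59). Single groups lay above that level. COL4A6 read 7.60 to 7.76 with APE1 siRNA and 8.13 to 8.19 with APE1 siRNA + TSA. COL6A1 read 7.74 to 7.88 with control siRNA and 7.88 to 8.12 with control siRNA + TSA.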

Other observations

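COL26A1, a short collagen known from the developing testis and ovary, was not called in BEAS-2B cells at the probe set by which it was read (-0.01 in RR, 0.04 in ND42 cells). At its other probe set, 233894_x_at, chosen after its values were seen, it averaged 6.19 in RR, 5.94 in ND42 and 5.50 in WT cells, which is 0.69 higher in RR (adjusted p = 9.56e-05, limma) and 0.44 higher in ND42 cells (adjusted p = 0.00189).

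COL12A1 was read at different probe sets in the lines, 225664_at in BEAS-2B cells and 234951_s_at in A549 cells. In A549 cells 225664_at read 6.37, 6.48 and 6.52 in control siRNA + TSA and 5.46, 5.57 and 5.41 in control siRNA cells, a log2 fold change of 0.98 that was not called (SE 0.35, adjusted p = 0.0764), and 1 APE1 siRNA array, replicate 2, read 7.12 where the other 2 read 5.44 and 5.65. Without that array the fold change of 0.98 was called (SE 0.09, adjusted p = 2.21e-06), and 225664_at was also called 0.66 lower in APE1 siRNA + TSA than in control siRNA + TSA cells (adjusted p = 0.000319).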
